A study of Mus musculus with 15 samples.

Results

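Oligodendrocyte and myelin genes were followed as a set of 9 genes, chosen by symbol from the 23235 genes of the deposited cortex RNA-seq table: Mbp, Mobp, Mog, Mag, Cnp, Cldn11, Ugt8a, Olig1 and Olig2. RNA-seq was done on the brain cortex of adult male mice in 4 groups. WT C57BL/6J mice were taken at Zt +6, in the light phase (n = 3 mice), and at Zt +16, in the dark phase (n = 2). Snord116del (+/-) mice of the strain B6(Cg)-Snord116tm1.1Uta/J, which carry a constitutive deletion of the Snord116 repeat cluster on the paternal allele, were taken at Zt +6 (n = 2) and Zt +16 (n = 2). The deletion removes the source of 116HG, the spliced long non-coding RNA made from the Snord116 host transcript. No group received a treatment. For each gene the table holds a single FPKM value per group (a level scaled to transcript length and to the mapped fragments, computed by the authors over the mice of a group), so neither a spread between mice nor a test could be had, and every comparison below is a difference between group values. The same series holds 5 lists of ChIRP-seq peaks from adult brain, in which DNA was pulled down with biotinylated oligos against 116HG or with non-specific control (NSC) oligos, and these were read at the same 9 genes.

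Oligodendrocytes are the glial cells of the central nervous system that wrap axons in myelin, a compacted stack of membrane rich in galactolipids and in a few abundant proteins. Olig1 and Olig2, basic helix-loop-helix transcription factors, act from the progenitor stage onward, whereas Mbp, Mobp, Mog, Mag, Cnp, Cldn11 and the lipid enzyme Ugt8a are switched on as the cells mature and build myelin. In the cortex these cells lie among neurons, astrocytes, microglia and vessels, and in tissue of this kind fewer oligodendrocytes and less RNA per oligodendrocyte cannot be told apart.

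The DNA just before the start of the genes is shown for Mobp, Mog and Ugt8a, which had the largest deposited log2 differences between genotypes at Zt +6. It is also shown for Olig2, whose deposited difference was small. This ranking depended on the scale. With each group scaled to the median of WT at Zt +6, Olig2 was at -0.585, Mobp at 0.48, Ugt8a at 0.37 and Mog at 0.23. Each sequence is the 250 bases upstream of the RefSeq start (GRCm38.p6 table), read 5′ to 3′ on the strand of the gene and placed in the mm9 genome (NCBIM37) by an exact match, and none of them held an annotated exon. Capitals mark the letters searched for on both strands: ACAAAG and ACAATG, the core of sites for Sox-type factors (CTTTGT and CATTGT on the other strand), GGGCGG, the GC box (CCGCCC on the other strand), and TATAAA.
Mobp (chr9:120058610-120058859, plus strand): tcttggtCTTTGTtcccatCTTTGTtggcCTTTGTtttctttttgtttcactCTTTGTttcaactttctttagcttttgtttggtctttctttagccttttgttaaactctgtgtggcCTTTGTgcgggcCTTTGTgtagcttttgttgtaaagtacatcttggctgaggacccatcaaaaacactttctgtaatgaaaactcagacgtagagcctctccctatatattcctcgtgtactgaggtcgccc
Mog (chr17:37160344-37160593, minus strand): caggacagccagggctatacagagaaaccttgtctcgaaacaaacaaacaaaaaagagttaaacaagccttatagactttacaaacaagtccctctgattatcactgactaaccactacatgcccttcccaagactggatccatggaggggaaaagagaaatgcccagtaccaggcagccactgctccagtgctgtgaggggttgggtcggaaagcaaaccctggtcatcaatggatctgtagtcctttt
Ugt8a (chr3:125641571-125641820, minus strand): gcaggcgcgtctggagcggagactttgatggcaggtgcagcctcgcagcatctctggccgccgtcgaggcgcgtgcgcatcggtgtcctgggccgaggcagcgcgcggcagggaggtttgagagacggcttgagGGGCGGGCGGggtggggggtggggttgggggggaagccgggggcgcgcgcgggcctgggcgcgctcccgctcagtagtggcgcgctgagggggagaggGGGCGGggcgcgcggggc
Olig2 (chr16:91225545-91225794, plus strand): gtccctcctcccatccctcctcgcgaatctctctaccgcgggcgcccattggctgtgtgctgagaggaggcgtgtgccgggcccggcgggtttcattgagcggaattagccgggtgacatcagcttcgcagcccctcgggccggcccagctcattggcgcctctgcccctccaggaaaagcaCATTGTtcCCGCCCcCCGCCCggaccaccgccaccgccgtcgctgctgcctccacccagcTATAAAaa

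The windows differed in composition and in the letters they held. The Mobp window held 6 copies of ACAAAG, each on the strand opposite to the gene, with a GC content of 40.8%. The Mog window held none of the letters searched and had a GC content of 46.8%. The Ugt8a window, at 76.8% GC, held 3 copies of GGGCGG, of which a pair overlapped. The Olig2 window held 1 ACAATG, a pair of GGGCGG and 1 TATAAA. Over the 7 members whose start was in the sequence table (not Mbp or Olig1), ACAAAG was found at 3 (Mag, Mobp and Cnp), against 18.6% of 27025 genes, and CTGGCAC, the core of a site for the factor Myrf, at 2 (Mag and Cnp), against 4.83%. GGGCGG was found at 3 members (Cnp, Ugt8a and Olig2; 35.4% of all genes), ACAATG and TATAAA at Olig2 alone (12.2% and 14.3%), and the E box CAGCTG at 0 of 7 (14.7%). A gene with several starts was counted once if any of its windows held the letters, and such a match describes letters only.

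All 9 members were measured in every group, and they spanned a wide range of FPKM. Mbp stood far above the others: it held 67.4% of the summed FPKM of the members in WT at Zt +6, 66.1% in Snord116del at Zt +6, 78.4% in WT at Zt +16 and 76.8% in Snord116del at Zt +16. Cnp and Cldn11 came next in every group, and Ugt8a was lowest in every group. Mag, Mobp, Mog, Olig2 and Olig1 changed places between groups. Mobp stood above Mag in Snord116del at Zt +6 and below it in the other 3 groups. Markers of Schwann cells, the myelin-forming cells of peripheral nerve, stayed below the filter on low values in each group, with Prx, the highest, at 0.285, 0.242, 0.292 and 0.254 FPKM in the order WT Zt +6, Snord116del Zt +6, WT Zt +16 and Snord116del Zt +16.

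**Figure D1:**
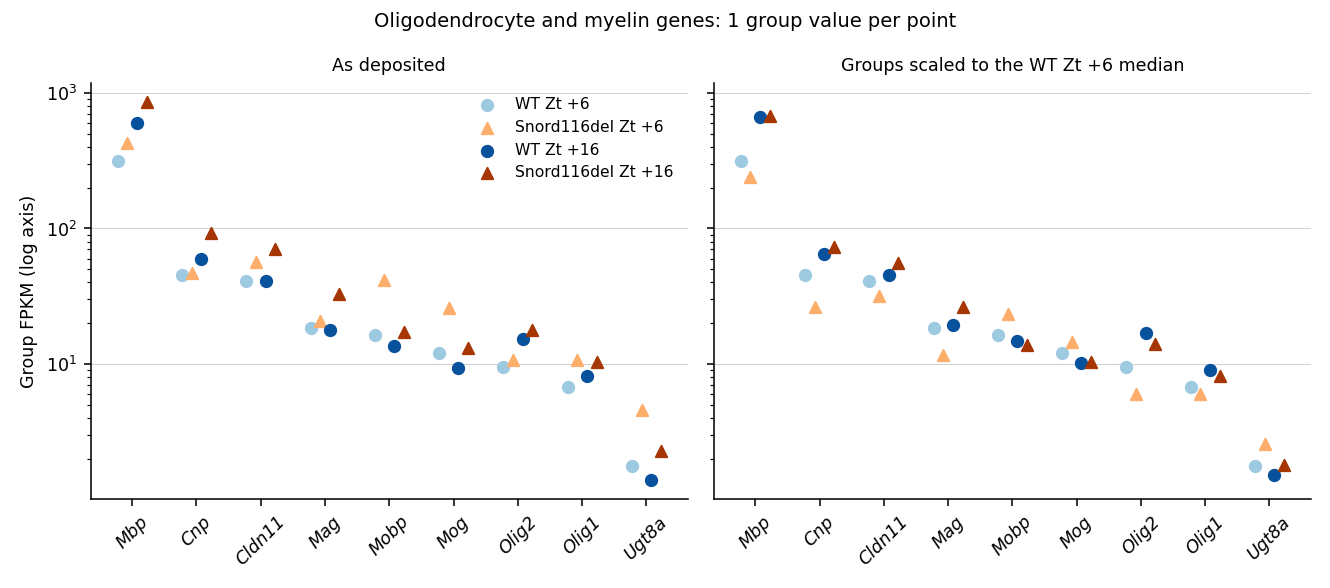
Group FPKM (log axis) of the 9 members in the 4 groups, as deposited (left) and with the groups scaled to the median of WT at Zt +6 (right); each point is 1 group value, with no error because the table holds none. On the left Mobp, Mog, Ugt8a and, by a small margin, Olig1 are highest in Snord116del at Zt +6 and Mbp, Cnp, Cldn11, Mag and Olig2 in Snord116del at Zt +16; on the right all members except Mobp, Mog and Ugt8a are lowest in Snord116del at Zt +6.

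The 4 groups were on different scales. The 10297 genes that averaged 1 FPKM or more over the groups were the tested genes, and their median FPKM was 3.17 in WT at Zt +6, 5.63 in Snord116del at Zt +6, 2.90 in WT at Zt +16 and 4.00 in Snord116del at Zt +16. The summed FPKM was 159300, 160199, 216422 and 342188 in the same order, and the 100 highest genes held 35.7%, 22.5%, 44.1% and 46.5% of it. Differences are therefore given as deposited and after each group was scaled to the median of WT at Zt +6. A gene was said to pass the fold rule when its values of FPKM + 1 were 1.5-fold apart or more on the log2 scale, with no less than 1 FPKM in the higher of the pair. This is a rule of size and not a test, and the added 1 FPKM makes the change of low genes smaller than their plain ratio.

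Mbp, myelin basic protein, which compacts the inner faces of the myelin membrane, had 314 FPKM (WT) and 425 FPKM (Snord116del) at Zt +6, then 603 and 854 FPKM at Zt +16. Both dark-phase groups lay above both light-phase groups. The log2 difference between genotypes was 0.43 at Zt +6 and 0.50 at Zt +16, under the fold rule at both times, and that between times was 0.94 in WT and 1.01 in Snord116del, past the rule in both. On median-scaled groups the genotypes differed by -0.40 and 0.04, and the times by 1.06 and 1.495. With the groups scaled to the same summed FPKM the time difference was 0.50 in WT and -0.09 in Snord116del, and with quantile normalization 0.26 and -1.19. Quantile normalization gave Mbp a genotype difference of 1.28 at Zt +6, past the fold rule as higher, and of -0.18 at Zt +16. Mobp, a small protein of compact myelin, had 16.5 FPKM (WT) and 41.6 FPKM (Snord116del) at Zt +6, then 13.6 and 17.4 FPKM at Zt +16. The Snord116del group at Zt +6 was the high value, and the other 3 groups lay between 13.6 and 17.4. Its log2 difference between genotypes was 1.28 at Zt +6, the largest of the members, and 0.33 at Zt +16. The value at Zt +6 stayed positive in all 10 alternatives, from 0.48 with median-scaled groups to 1.33 with a pseudocount of 0.1. Among these, dropping the filter on low values or using a 2-fold rule could not change it, since neither alters the value of a member.

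Mog, myelin oligodendrocyte glycoprotein, on the outermost surface of the sheath, had 12.2 FPKM (WT) and 25.8 FPKM (Snord116del) at Zt +6, then 9.35 and 13.2 FPKM at Zt +16. Its order of groups was close to that of Mobp, with Snord116del at Zt +6 on top and WT at Zt +16 at the bottom. The genotypes differed by 1.02 on the log2 scale at Zt +6 and by 0.46 at Zt +16, and by 0.23 and 0.03 on median-scaled groups. Mag, myelin-associated glycoprotein, which sits on the membrane facing the axon, had 18.5 FPKM (WT) and 20.7 FPKM (Snord116del) at Zt +6, then 17.8 and 33.1 FPKM at Zt +16. Here the Snord116del group at Zt +16 stood apart and the other 3 lay between 17.8 and 20.7. The log2 difference between genotypes was 0.15 at Zt +6 and 0.86 at Zt +16. The latter was higher than that of 96.6% of tested genes. It stayed positive in all 10 alternatives, of which no filter and a 2-fold rule could not change it. On every rescaled table it fell under the fold rule (0.41 with median-scaled groups). Mog and Mag, both members of the immunoglobulin superfamily in the same sheath, had their highest values at opposite times in Snord116del.

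Cnp, the cyclic nucleotide phosphodiesterase of non-compacted myelin, had 45.7 FPKM (WT) and 47.3 FPKM (Snord116del) at Zt +6, then 59.3 and 92.5 FPKM at Zt +16. Its genotype difference was 0.05 on the log2 scale at Zt +6, the smallest of the members, and 0.63 at Zt +16. Dnajc7 overlaps Cnp on the opposite strand, and whether strand was used in the authors' counting is not given in the sources used here, so reads of the pair may not have been told apart. Cldn11, the claudin of the tight junctions between layers of myelin, had 40.8 FPKM (WT) and 56.5 FPKM (Snord116del) at Zt +6, then 41.3 and 70.9 FPKM at Zt +16. The WT groups were nearly equal, and both Snord116del groups lay above them, by 0.46 and 0.76 on the log2 scale. On median-scaled groups Cldn11 was lower in Snord116del at Zt +6 (-0.35) and higher at Zt +16 (0.31).

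Ugt8a, the transferase that makes galactosylceramide, the main glycolipid of myelin, had 1.79 FPKM (WT) and 4.62 FPKM (Snord116del) at Zt +6, then 1.40 and 2.30 FPKM at Zt +16. In plain ratio Snord116del had 2.58 times the WT value at Zt +6, the largest ratio of the members, and 1.64 times at Zt +16; the log2 differences, shortened by the pseudocount at this low level, were 1.01 and 0.46. Among the transcription factors, Olig1 had 6.81 FPKM (WT) and 10.8 FPKM (Snord116del) at Zt +6, then 8.25 and 10.4 FPKM at Zt +16. The Snord116del groups were close to each other and both lay above the WT groups, by 0.59 at Zt +6, just past the fold rule, and by 0.31 at Zt +16. Olig2 had 9.57 FPKM (WT) and 10.8 FPKM (Snord116del) at Zt +6, then 15.4 and 17.9 FPKM at Zt +16. As deposited its values differed more by time than by genotype, with a log2 difference between times of 0.64 in WT and 0.68 in Snord116del and between genotypes of 0.15 and 0.20. With equal sums its time difference was 0.22 in WT and -0.33 in Snord116del, and on median-scaled groups its genotype difference at Zt +6 was -0.585, past the rule. The Olig2 difference in WT was higher than that of 95.6% of tested genes, and that of Mbp higher than that of 99.3%.

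The comparison of genotypes at Zt +6 asked what loss of the paternal Snord116 cluster changed in the light phase. All 9 members had a higher deposited value in Snord116del than in WT. Of these 4 passed the fold rule (Mobp, Mog, Ugt8a and Olig1), 0 passed it as lower, and 5 did not pass. The same rule called 56.9% of all tested genes, 49.3% as higher and 7.62% as lower. The median log2 difference of the members was 0.46, under the 0.57 of all tested genes. On median-scaled groups 6 of the 9 members were lower in Snord116del, 0 passed the fold rule as higher and 3 passed it as lower (Cnp -0.76, Mag -0.63 and Olig2 -0.585), against 13.5% and 23.4% of all tested genes. For Mbp, Mag, Cnp, Cldn11, Olig1 and Olig2 the direction at Zt +6 thus depended on the scale, and for Mobp, Mog and Ugt8a it did not differ between these 2 scales.

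At Zt +16 the genotypes were compared in the dark phase, when mice are active. All 9 members were again higher in Snord116del as deposited, and 3 passed the fold rule (Mag, Cldn11 and Cnp), all as higher, against 19.2% of all tested genes, 19% higher and 0.204% lower. The median of the members was 0.46, above the 0.35 of all tested genes. On median-scaled groups 0 members passed, against 1.56% of all tested genes in either direction, and the members ranged from -0.24 (Olig2) to 0.41 (Mag). When the log2 difference at Zt +16 was set against that at Zt +6, the change was past the size of the fold rule for 3 members, with Mag (0.71) and Cnp (0.59) larger at Zt +16 and Mobp (-0.95) larger at Zt +6, against 52.9% of all tested genes, 19.4% larger at Zt +16 and 33.5% larger at Zt +6. Mog (-0.57) and Ugt8a (-0.55) lay just under the rule. On median-scaled groups Mag (1.04), Cnp (0.93) and Cldn11 (0.66) passed and Mobp (-0.58) lay just under. There 26.4% of tested genes were larger at Zt +16 and 15.9% at Zt +6. With equal sums Mobp (-1.55), Mog (-1.16), Ugt8a (-0.97) and Olig1 (-0.86) passed, and Mag (0.08) and Cnp (-0.06) did not. The shares were then 7.99% and 55.1%. No test of these differences was possible.

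**Figure D2:**
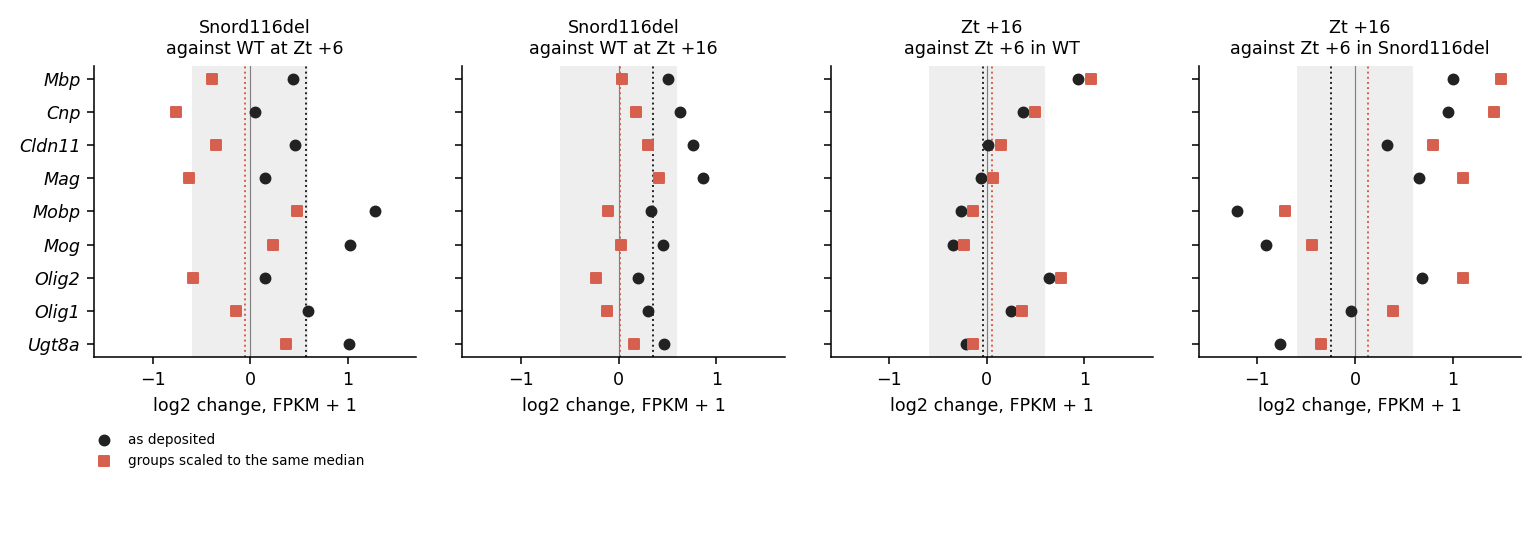
Log2 difference of FPKM + 1 for each member in the 4 comparisons, as deposited (black circles) and on median-scaled groups (red squares); dotted lines mark the median of all tested genes on each scale and the grey band the differences under 1.5-fold. Mobp (1.28), Mog (1.02) and Ugt8a (1.01) lie right of the band at Zt +6 as deposited, and all 9 members fall inside it at Zt +16 on median-scaled groups.

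The comparisons of time used the same 4 groups, so they share their values with those above. In WT 2 members, Mbp and Olig2, passed the fold rule, both as higher at Zt +16. As deposited the rule called 16% of all tested genes, 5.71% as higher and 10.3% as lower. The same 2 passed on median-scaled groups, at 1.06 and 0.76, against 10.2% of tested genes as higher. With equal sums 0 members passed as higher and 2 as lower, Mog at -0.74 and Mobp at -0.67. The shares of all tested genes with equal sums were 0.437% higher and 23.4% lower. In Snord116del 7 members passed as deposited. Mbp (1.01), Cnp (0.95), Olig2 (0.68) and Mag (0.65) were higher at Zt +16, and Mobp (-1.21), Mog (-0.91) and Ugt8a (-0.77) were lower. The same rule called 64% of tested genes there, 25% as higher and 39.1% as lower. The median log2 difference of the members was 0.02 in WT, where that of all tested genes was -0.04, and 0.32 in Snord116del, where it was -0.24. On median-scaled groups 5 members passed as higher in Snord116del (Cldn11, at 0.80, with the former 4) and 1 as lower (Mobp, -0.72), against 34.1% and 25.3% of tested genes.

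A ratio of members within a group does not change when the whole group is multiplied by 1 factor. It does change with quantile normalization. At Zt +6 that gave Mbp 462 (WT) and 1119 (Snord116del), Mobp 21.0 and 51.3, Mog 15.5 and 27.0, and Ugt8a 2.18 and 3.07. The ratios below are of deposited values. Mbp had 19.0 times the FPKM of Mobp in WT and 10.2 times in Snord116del at Zt +6, and 44.3 times and 49.1 times at Zt +16. The ratio of Mbp to Mog was 25.8, 16.5, 64.5 and 64.6 in the same order of groups, and that of Mbp to Ugt8a 175, 91.9, 430 and 371. For these 3 genes the ratio was lowest in Snord116del at Zt +6, and both dark-phase groups were above both light-phase groups. The ratios of Mbp to Cldn11 (7.70, 7.53, 14.6 and 12.1) and to Olig1 (46.2, 39.4, 73.0 and 81.8) had the same order of light and dark groups, with a smaller step between the genotypes at Zt +6. The ratio of Mbp to Cnp varied less, at 6.88, 8.99, 10.2 and 9.23, as did that of Mbp to Olig2, at 32.8, 39.5, 39.1 and 47.7. With quantile normalization Snord116del at Zt +6 was not the lowest group for the ratio of Mbp to Mog or to Ugt8a. There the genotype difference at Zt +6 was 1.28 on the log2 scale for Mbp, 0.76 for Mog and 0.35 for Ugt8a. With 1 value per group no error can be given for a ratio.

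**Figure D3:**
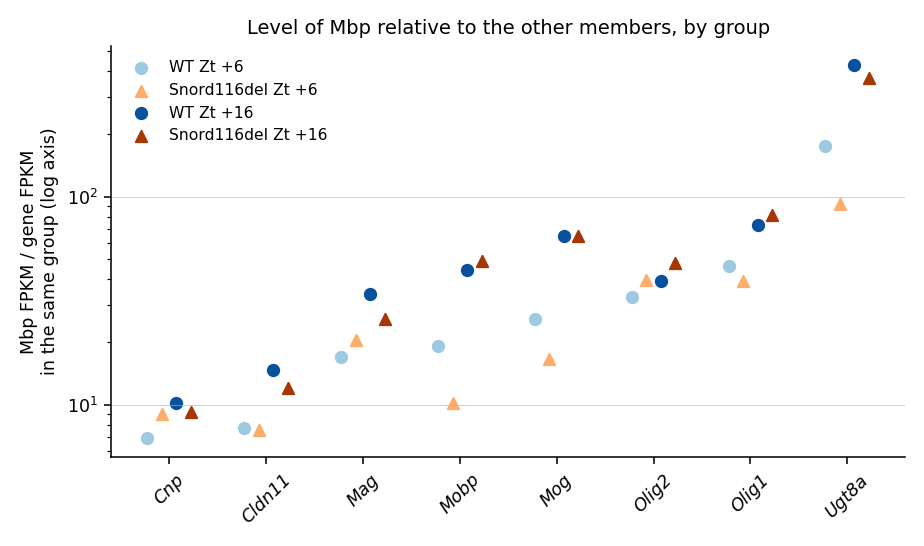
FPKM of Mbp divided by the FPKM of each other member in the same group (log axis), 1 point per group. The ratios to Mobp, Mog and Ugt8a are lowest in Snord116del at Zt +6 (10.2, 16.5 and 91.9) and higher in both groups at Zt +16, and the ratio to Cnp lies between 6.88 and 10.2.

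The profile of a gene over the groups was taken as its log2(FPKM + 1) centred on its mean over the 4 values. Cldn11 lay nearest to the median profile of the members, with a root mean square difference of 0.019 on the log2 scale, and Mobp lay farthest, at 0.55. Between members, Mog and Ugt8a were the most alike pair (0.069), the nearest member to Mobp was Mog (0.11), the nearest to Mbp was Cnp (0.21), and Cnp and Olig2 were nearest to each other (0.16). Outside the members, the 5 tested genes nearest to their median profile were Cpsf1 (0.013), Snapc4 (0.017), Ppp6r1 (0.017), Eif3d (0.018) and Agpat4 (0.022). A profile of 4 values is matched closely by many of 10297 genes.

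Other genes of the oligodendrocyte lineage were read from 6 lists with 66 genes, of which 55 passed the filter on low values. At Zt +6, 30 passed the fold rule as higher in Snord116del and 1 as lower (Ppp1r14a, a phosphatase inhibitor, -0.94). At Zt +16, 13 passed as higher and 0 as lower, against the shares of all tested genes given above. Their median log2 differences were 0.63 and 0.39. On median-scaled groups the counts were 6 higher and 10 lower at Zt +6, against 13.5% and 23.4% of all tested genes. At Zt +16 the count was 0, against 1.56%. In time, 2 were higher and 7 lower at Zt +16 in WT, against 5.71% and 10.3% of all tested genes. In Snord116del 12 were higher and 23 lower, against 25% and 39.1%.

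Of 18 myelin and axon-contact proteins, 11 passed as higher and 0 as lower at Zt +6, against 49.3% and 7.62% of all tested genes. Mal, a membrane-raft protein of myelin, differed by 0.88 and 0.52 between genotypes, and the tetraspanin Tspan2 by 1.35 and 0.38. Of 7 tested myelin lipid enzymes, 4 passed as higher at Zt +6 and 2 at Zt +16, against 49.3% and 19% of all tested genes. Gal3st1, which sulfates the product of Ugt8a, had 1.22 and 2.74 FPKM at Zt +6 and 0.996 and 1.36 at Zt +16, the same order of groups as Ugt8a. Fa2h, the fatty acid hydroxylase of myelin lipids, differed by 0.37 and 0.18. Enpp2, autotaxin, had 12.6, 24.0, 3.71 and 5.15 FPKM in the order WT and Snord116del at Zt +6, then at Zt +16, and is also made by the choroid plexus.

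Of 16 other genes of mature oligodendrocytes, 6 passed as higher and 1 as lower at Zt +6, and 6 as higher at Zt +16. For this list and those that follow, the shares of all tested genes were 49.3%, 7.62% and 19% in that order. Cryab, a small heat-shock protein, had 88.3 and 59.1 FPKM at Zt +6 and 131.6 and 164.7 at Zt +16, so its lowest value was in Snord116del at Zt +6, where Mobp was highest. Plekhb1 differed between genotypes by 1.15 at Zt +6 and 0.51 at Zt +16, and Trf, transferrin, by 1.51 and 0.36. Of 5 tested transcription factors, 2 passed as higher at Zt +6, namely Sox8 (1.14) and Gm98, the older symbol of Myrf, which drives myelin genes (1.04). Nkx6-2 had 7.27 and 4.85 FPKM at Zt +6 and 12.7 and 25.8 at Zt +16, and Zfp488 had 114, 135, 76.2 and 77.1. Of 5 tested progenitor genes, 4 passed as higher at Zt +6 and 0 at Zt +16. Ptprz1, a receptor phosphatase that astrocytes also express, had 3.40, 16.2, 0.395 and 0.479 FPKM, the extracellular matrix protein Tnr differed by 1.72 and 0.06, and C1ql1 by -0.23 and 0.21. Of 4 inhibitors of oligodendrocyte differentiation, 3 passed as higher at Zt +6: Id4 (1.52), Lingo1 (0.98) and Id2 (0.59). Tspan2, Nkx6-2, C1ql1 and Id4 overlap another gene on the opposite strand and Trf overlaps Srprb on the same strand, so part of their reads is uncertain, as is true of Mbp and Mog, which overlap a ribosomal protein pseudogene and a copy of 7SK.

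**Figure D4:**
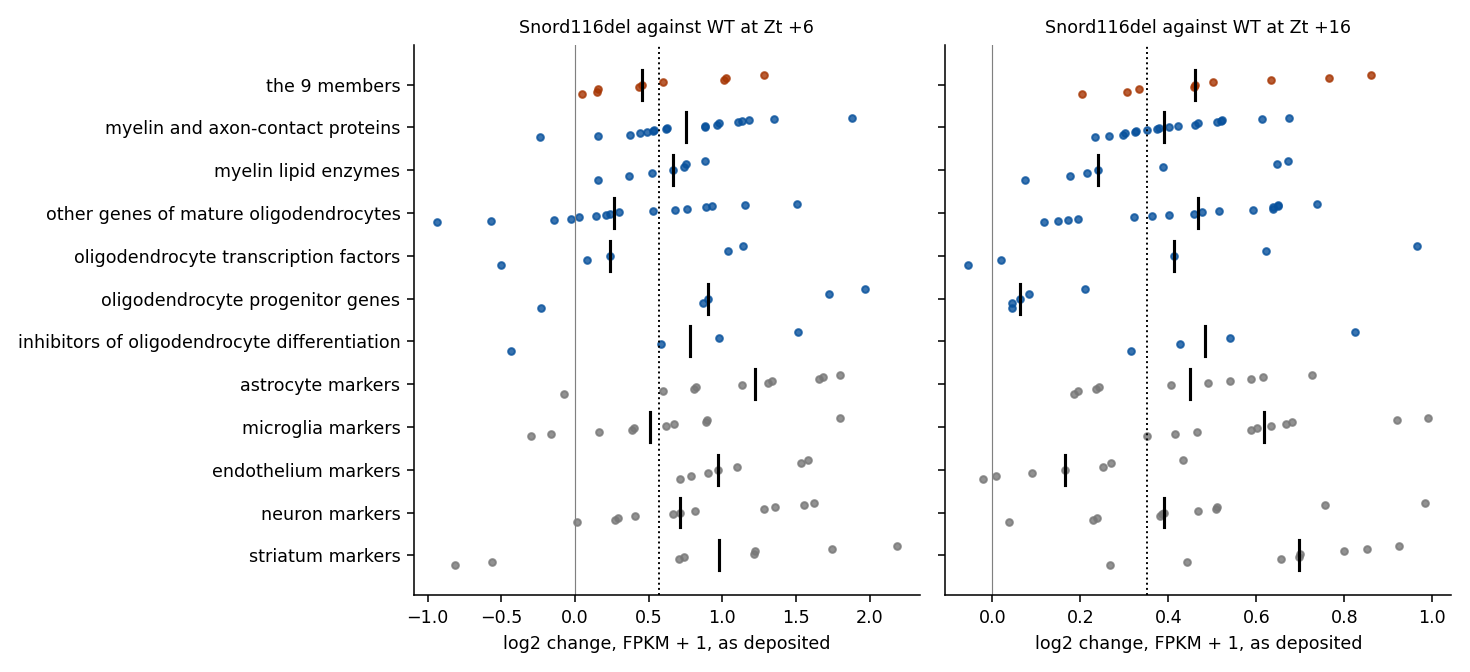
Log2 difference of FPKM + 1 between Snord116del and WT at Zt +6 (left) and Zt +16 (right), as deposited, for the tested genes of each list (1 point per gene; black bars, list medians; dotted line, median of all tested genes). The members have a median of 0.46 at both times, against 0.57 and 0.35 for all tested genes, and the astrocyte markers have 1.22 and 0.45.

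Markers of the other cell types of the tissue were read by the same rule. Of all tested genes it called 49.3% as higher and 7.62% as lower at Zt +6, and 19% and 0.204% at Zt +16. Of 10 tested astrocyte markers, 9 passed the fold rule as higher in Snord116del at Zt +6 and 3 at Zt +16, with a summed FPKM of 517, 904, 651 and 973 in the order WT Zt +6, Snord116del Zt +6, WT Zt +16 and Snord116del Zt +16. The summed FPKM of the members in that order was 466, 643, 769 and 1112. Of 10 tested microglia markers 5 passed as higher at Zt +6 and 7 at Zt +16 (sums 108 to 226), of 7 endothelial markers 7 and 0 (sums 42.5 to 82.2), and of 11 neuron markers 7 and 2 (sums 819 to 1818). Of 8 striatum markers 6 passed as higher and 1 as lower at Zt +6 and 6 as higher at Zt +16 (sums 206 to 582), with Penk at 145, 98.0, 264 and 429 FPKM. Ttr, the transport protein made by the choroid plexus, was at 200 and 182 FPKM at Zt +6 and at 24.9 and 29.6 at Zt +16, and the other 5 choroid plexus markers did not reach a mean of 1 FPKM. Among the highest genes of the lists, Aldoc of astrocytes had 275, 261, 465 and 713 FPKM, C1qb of microglia 38.3, 43.0, 49.0 and 98.3, Ly6c1 of endothelium 33.5, 55.5, 43.6 and 59.2, and Snap25 of neurons 481, 590, 417 and 545. On median-scaled groups 3 astrocyte markers were past the rule as higher and 1 as lower at Zt +6, and 0 at Zt +16. The shares of all tested genes were 13.5% higher and 23.4% lower at Zt +6, and 1.56% in either direction at Zt +16. No list had a marker at 0 in any group. The part of tissue makeup in the differences of the myelin genes was not tested.

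The differences also ran with the make-up of the transcripts. Over the 9945 tested genes with a known transcript, the log2 difference at Zt +6 had a Spearman rho of -0.39 with GC content and 0.65 with transcript length, as a description over genes of the same 2 groups, which are not independent. Over the 9 members rho was -0.47 with GC content and -0.03 with length. Ugt8a, at 39.9% GC, had 3.31% of tested genes below it in GC content, and Olig1, at 60.8% GC, had 95.8% below it. With the GC trend removed, the difference of Ugt8a at Zt +6 was -0.07 in place of 1.01, whereas that of Mobp was 0.88 and that of Mog 0.45. With the length trend removed, Mobp was at 0.64, Mog at 0.87 and Ugt8a at 0.30. The part of fragmentation, priming or RNA quality in this was not tested.

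ChIRP-seq asked where on the genome 116HG is found. In the list of WT 116HG replicate 1 every member had at least 1 peak within 2 kb, as did 59.4% of all annotated genes of the table and 93.6% of those past the FPKM filter. The 9 members had 73 such peaks, and 61 of them (83.6%) had their middle in an exon of that member. Of these, 29 lay in a 3′ UTR, 21 in a coding exon, 9 in a 5′ UTR and the rest in exons of transcripts without coding sequence. The other 12 lay in introns of the member, where exons of other genes were not looked for. Of all peaks of that list 72.0% had their middle in an exon of any gene. These shares are not like for like, because the latter also counts peaks away from genes. The strongest peak by the deposited fold over input was at Mbp (chr18:82753501-82755040, 3′ UTR, 523-fold), which also had the most peaks, 17. The next strongest peak was also at Mbp, in an intron (chr18:82692949-82693224, 482-fold). By the top peak of each member alone, Mbp was followed by Cldn11 (chr3:31062401-31063256, 359-fold), Cnp (chr11:100441665-100443043, 349-fold), Mag (chr7:31684189-31684716, 298-fold), Mobp (chr9:120088630-120090529, 265-fold) and Mog (chr17:37147725-37148527, 174-fold). These top peaks were all in the 3′ UTR. At the other end of the gene, the 5′ UTR peak at the start of Mobp (chr9:120058841-120058931, 171-fold) overlapped the last bases of the upstream window printed above. The top peaks of Olig1 (82.1-fold), Ugt8a (73.7-fold) and Olig2 (36.8-fold) lay in the 5′ UTR.

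**Figure D5:**
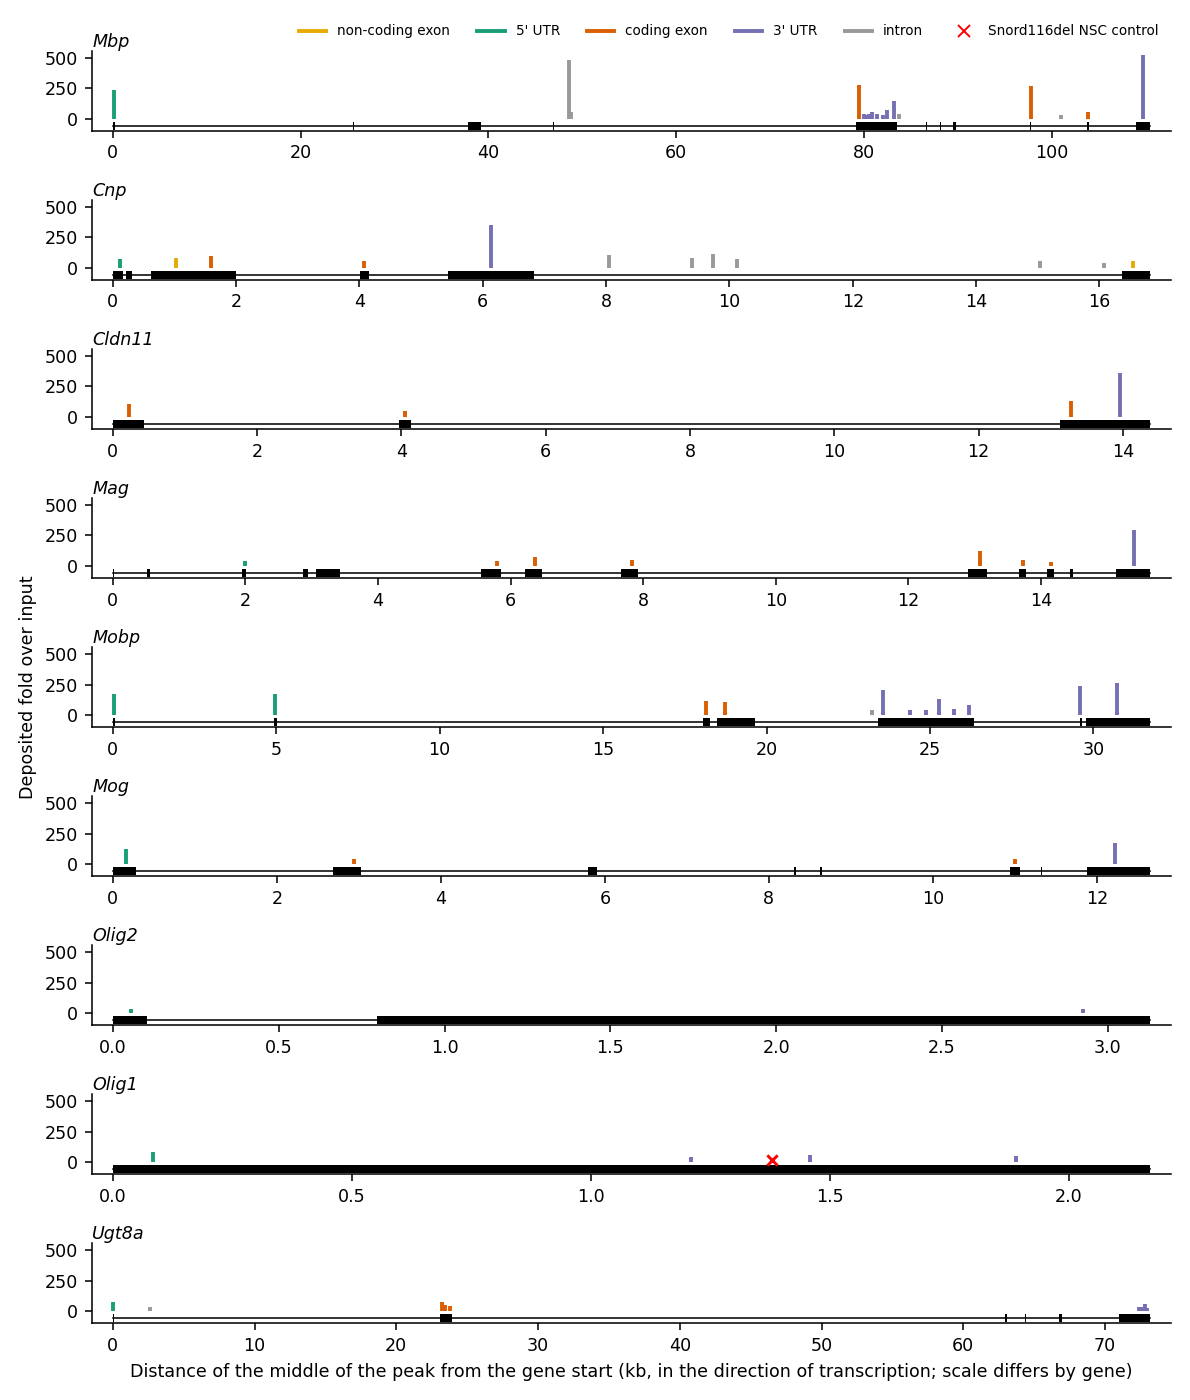
Peaks of WT 116HG replicate 1 along each member, by the distance of the middle of the peak from the gene start (kb, in the direction of transcription; the scale differs by gene) and the deposited fold over input; colours give the annotated place, black boxes the exons of all transcripts, and the red cross the peak of the Snord116del NSC control at Olig1 (20.4-fold). The highest bars of Mbp, Cldn11, Cnp, Mag, Mobp and Mog stand over the 3′ end of the gene or of a transcript.

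Members with a higher FPKM mostly had a higher top peak. Exceptions were Olig2 (9.57 FPKM, 36.8-fold), under Olig1 (6.81 FPKM, 82.1-fold) and Ugt8a (1.79 FPKM, 73.7-fold), and Cnp (45.7 FPKM, 349-fold), under Cldn11 (40.8 FPKM, 359-fold). Over the 9 members Spearman's rho between the top fold over input and the WT FPKM at Zt +6 was 0.93, and over the 9518 tested genes with such a peak it was 0.56, both as descriptions over genes of a single peak list. Replicate 1 peaks lying wholly in coding exons are shown for Mog and Ugt8a. The nearest WT 116HG replicate 2 peak was 18.1 kb from Mog and 286 kb from Ugt8a. The printed bases are those of the reference genome NCBIM37 on the strand of the gene and not of sequenced fragments, and no letters were searched for in them.
Mog coding-exon peak (chr17:37157335-37157464, minus strand, 41.0-fold over input): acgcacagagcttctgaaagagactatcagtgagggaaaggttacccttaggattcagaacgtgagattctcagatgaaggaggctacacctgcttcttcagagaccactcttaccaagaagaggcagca
Ugt8a coding-exon peak (chr3:125617966-125618110, minus strand, 51.3-fold over input): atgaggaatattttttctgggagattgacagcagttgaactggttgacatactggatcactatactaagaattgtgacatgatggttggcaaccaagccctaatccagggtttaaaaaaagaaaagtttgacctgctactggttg

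The other 4 lists held few peaks near the members. WT 116HG replicate 2, whose list gives positions only, had a peak within 2 kb of 0 of 9 members. The shares were 13.9% of annotated genes and 17.5% of those past the FPKM filter. WT with NSC oligos had 0 (2.3% and 2.53% in that order) and Snord116del with 116HG oligos had 0 (2.26% and 2.86%). Snord116del with NSC oligos had 1, at Olig1 (chr16:91271112-91271677, 20.4-fold), against 7.88% and 10.6%. A replicate 1 peak near the gene that lay within 10 kb of a replicate 2 peak was found at 1 member, Cnp. The shares were 10.9% of annotated genes and 18.1% of those past the FPKM filter. The replicate 1 peak at Cnp (chr11:100436293-100436392, 5′ UTR, 71.8-fold) and the replicate 2 peak were 9275 bases apart, with the latter in an intron of the neighbouring gene Ttc25. The replicate 2 peak was 80 bases wide, and 8 copies of the repeat unit CATCAC made up 60% of it.

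With direct overlap required between the replicates, 0 members were left, and with 50 kb allowed there were 4, against 3.33% and 27.2% of annotated genes. The nearest replicate 2 peaks were at 9.2 kb from Cnp and 18.1 kb from Mog and between 42.4 and 343 kb from the other 7.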

How the data were processed

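RNA-seq covered 9 mice in 4 groups. Per the labels and the methods of the study, the authors aligned reads to mm9 with TopHat2 2.0.5 and computed FPKM with Cuffdiff 2.0.2, and what they deposited is 1 FPKM per gene for each group. It holds neither counts nor values per mouse, so the depth behind each value cannot be read from it and no interval, SD or test could be computed. The authors' own fold changes, q-values and significance calls, also in that table, were not used. The labels of 1 WT and 2 Snord116del mice at Zt +6 name an earlier version of the table and those of the other 6 mice the later version used here; whether this marks a batch is not given in the sources used here.

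Groups were compared as log2(FPKM + 1) among the 10297 genes averaging 1 FPKM or more, as deposited and with every group scaled to the median of WT at Zt +6. A difference was counted past 1.5-fold with at least 1 FPKM in the higher group. Alternatives were a pseudocount of 0.1, other scalings, quantile normalization, no filter, 2-fold, and trends on transcript length and (added after the data were seen) GC content removed by lowess with a fraction of 0.3. The rules were tested on simulated data. The members and gene lists were chosen with earlier results of these data known. All members are described in full; from each oligodendrocyte list the 2 genes highest in mean FPKM and the 2 with the largest difference at Zt +6 are named, from each marker list the highest gene, and the 5 tested genes nearest to the median profile of the members. Ppp1r14a was named after its value was seen. Some items that these rules would name are not reported here. FPKM allows comparison between genes per length. At equal length and depth, the authors' estimate for a low gene such as Ugt8a rests on fewer fragments than that for a high gene.

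For ChIRP-seq the authors aligned reads to mm9 with Bowtie2 2.0.0 and called peaks with MACS 1.4.2 against an input library, keeping peaks above 20-fold over input at a false discovery rate under 5%. The deposited ratio is the fold over input; the input library itself was not analysed here. Peaks were placed with GENCODE vM1 on NCBIM37 (mm9), within 2 kb of a gene, and the replicates were joined within 10 kb. Python 3.11.15, numpy 2.4.6, pandas 2.3.3 and statsmodels 0.14.6 were used.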

Additional observations from a re-analysis of the deposited data

Results flagged for a closer look

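The time difference of Mag had opposite signs in the genotypes, with that in Snord116del past the fold rule: Zt +16 minus Zt +6 was -0.06 on the log2(FPKM + 1) scale in WT and 0.65 in Snord116del, a gap of 0.71. On median-scaled groups both were positive, at 0.06 and 1.10, and with equal sums both were negative, at -0.47 and -0.40. The difference was not tested, since each group has 1 value.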

How the results depend on the processing

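No paired analysis was possible because the table gives 1 value per group, and for the same reason no mouse could be left out. Of 450 alternative values of the members' log2 differences, 275 kept direction and side of the fold rule, 70 fell under it, 19 rose past it and 86 changed sign, 67 of these under the rule on both scales and 19 past it on at least 1. The 275 include all values without a filter on low values, which repeat those as deposited. Values with a 2-fold rule differ from the deposited ones only in the rule and could not change sign. With median-scaled groups the difference at Zt +6 changed sign for Mbp (-0.40) and Cldn11 (-0.35), under the rule on both scales, and for Mag (-0.63), Cnp (-0.76), Olig1 (-0.14) and Olig2 (-0.59). With equal sums the time difference in Snord116del, among others, turned for Mbp (-0.0877), Mag (-0.40), Cnp (-0.12), Cldn11 (-0.75) and Olig2 (-0.33), the difference of Cnp at Zt +16 was -0.0181 and its dependence on time -0.0577. With quantile normalization the time difference in Snord116del was -1.19 for Mbp and -0.62 for Cldn11, and the dependence on time -1.45 for Mbp and -0.00 for Cnp. For Ugt8a, removing the GC trend, alone or with the length trend, gave -0.074 and -0.19 at Zt +6 and 0.23 and 0.41 for time in Snord116del. The cause was not tested.

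The count of members past the fold rule at Zt +6, 4 as deposited, was 1 with upper-quartile scaling or the GC trend removed. It was 2 with the length trend or both trends removed. Of all tested genes 56.9% passed as deposited, and 40.3%, 34.5%, 24.8% and 22.5% under these settings in the same order. At Zt +16 the count of 3 became 0 under every rescaling, quantile normalization, each removed trend and a 2-fold rule. Under these settings between 0.893% and 1.56% of all tested genes passed, in place of 19.2%. For time in WT, 2 became 0 with quantile normalization or a 2-fold rule and 1 with both trends removed. With equal sums the count was 2, both lower and neither of the deposited 2. The shares of all tested genes were 11.8%, 2.79%, 9.95% and 23.8% in the same order, against 16% as deposited. In Snord116del, 7 became 2 with a 2-fold rule and 4 with the GC trend or both trends removed. These settings called 42.4%, 58% and 46.7% of all tested genes, in the same order, against 64% as deposited. With equal sums 0 members were higher and 5 lower, against 7.95% and 65.3%. The 3 members that depended on time became 5 with the length trend removed and 0 with a 2-fold rule. Of all tested genes 32.4% and 26% passed there, against 52.9% as deposited.

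For the other oligodendrocyte genes, 31 at Zt +6 became 16 with median or upper-quartile scaling or the GC trend removed. The count was 20 with quantile normalization, 13 with the length trend removed, 12 with a 2-fold rule and 11 with both trends removed. Of all tested genes 36.8%, 40.3%, 34.5%, 42.8%, 24.8%, 29.7% and 22.5% passed in the same order, against 56.9% as deposited. At Zt +16, 13 became 1 with equal sums or quantile normalization and 0 with the other scalings, the removed trends and a 2-fold rule. Between 0.893% and 1.56% of all tested genes passed under these settings, in place of 19.2%. For time, 9 in WT became 15 with equal sums and 5 with a 2-fold rule, against 23.8% and 2.79% of all tested genes. In Snord116del 35 became 18 with a 2-fold rule and 23 with both trends removed, against 42.4% and 46.7%.

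The 1 member with a replicated peak became 0 with direct overlap, with peaks in the upper quartile of fold, or with replicate 2 peaks near a replicate 1 peak (chosen after seeing the data). The shares of annotated genes were 3.33%, 5.4% and 8.03% in the same order. The count was 4 within 50 kb (27.2%), 0 without replicate 1 (13.9%) and 9 without replicate 2 (59.4%).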
